A study of Mus musculus with 2 samples.

Results

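Lysozymes, angiogenin ribonucleases and intelectin are small secreted proteins that kill, agglutinate or bind microbes or that cut RNA outside the cell. The 7 genes described here are Lyz1, Lyz2, Ang, Ang4, Rnase1, Rnase4 and Itln1. They were chosen by gene symbol from a table of 18919 genes, and all 7 were measured, which means that their level was 1 FPKM or more in at least 1 library. FPKM, the authors' unit, counts fragments relative to transcript length and sequencing depth, and 13253 genes of the table were measured in this sense.

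The data are RNA-seq profiles of whole intestine from 2-month-old C57BL/6 mice in 2 groups. The knockout pool had the genotype APCmin; Setd2IEC-/-, in which intestinal epithelial cells lack Setd2, the enzyme that trimethylates histone H3 at lysine 36. The control pool had the genotype APCmin. Both groups therefore carried the Min allele of Apc, which causes intestinal adenomas, and both received no treatment. RNA of 3 littermates was mixed for each group and sequenced as 1 library, so differences between mice cannot be seen and no difference below has a replicate check. The driver of the epithelial deletion and the intestinal segment are not given in the sources used here. Stroma, immune cells and vessels in the knockout pool kept the gene. The libraries held 8646358 expected counts in the knockout pool and 8809678 in the control pool. Setd2 itself was at 3.47 FPKM in the knockout pool and 6.87 FPKM in the control pool, a ratio of 0.504 (95% counting interval 0.432 to 0.587).

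Lysozyme cleaves the sugar backbone of bacterial cell walls. The mouse has a pair of lysozyme C genes that arose by duplication: Lyz1 is the form stored in the granules of Paneth cells at the crypt base, and Lyz2 is the form of macrophages and other myeloid cells. The vertebrate ribonuclease A family includes digestive enzymes, such as pancreatic ribonuclease (Rnase1), as well as angiogenins, which cut RNA and were named for their effect on vessel growth. Ang4 is a mouse angiogenin with bactericidal activity that is made in Paneth and goblet cells, and Itln1 encodes intelectin, a lectin of the same cells that recognises sugars of microbial surfaces.

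The 7 genes lie on 3 chromosomes. Lyz1 (gene identifier 17110) and Lyz2 (17105) lie side by side on the minus strand of chromosome 10, at chr10:117287795-117292868 and chr10:117277541-117282272 of the mouse build mm10, which is GRCm38. Ang (11727) and Rnase4 (58809) overlap on the plus strand of chromosome 14, at chr14:51091077-51102009 and chr14:51091077-51106151. Rnase1 (19752, chr14:51145002-51146767) and Ang4 (219033, chr14:51763892-51773590) lie further along the same chromosome on the minus strand. Itln1 (16429) is alone on chromosome 1, at chr1:171518123-171535325. Positions are those of RefSeq for GRCm38.p6, in which all 7 gene identifiers were found.

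The lysozyme genes are shown first because their likeness affects how reads could be assigned. Their coding sequences are 447 bases each and differ at 22 bases, which is 95.1% identity. The first 120 bases of coding sequence, from the GENCODE M21 transcripts, hold 11 of these differences, shown in capitals:
Lyz1: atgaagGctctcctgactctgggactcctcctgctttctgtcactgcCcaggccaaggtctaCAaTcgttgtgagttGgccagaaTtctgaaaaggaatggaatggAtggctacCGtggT
Lyz2: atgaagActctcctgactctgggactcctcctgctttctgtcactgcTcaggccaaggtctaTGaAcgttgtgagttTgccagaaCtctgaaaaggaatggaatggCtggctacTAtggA
Where both transcripts have bases they were 95.8% identical over 1264 aligned positions, and the longest run without a difference was 118 bases. Of all stretches of 50 bases in the Lyz1 transcript, 16.1% also occur in Lyz2, and of all stretches of 100 bases 2.06%.

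**Figure D1:**
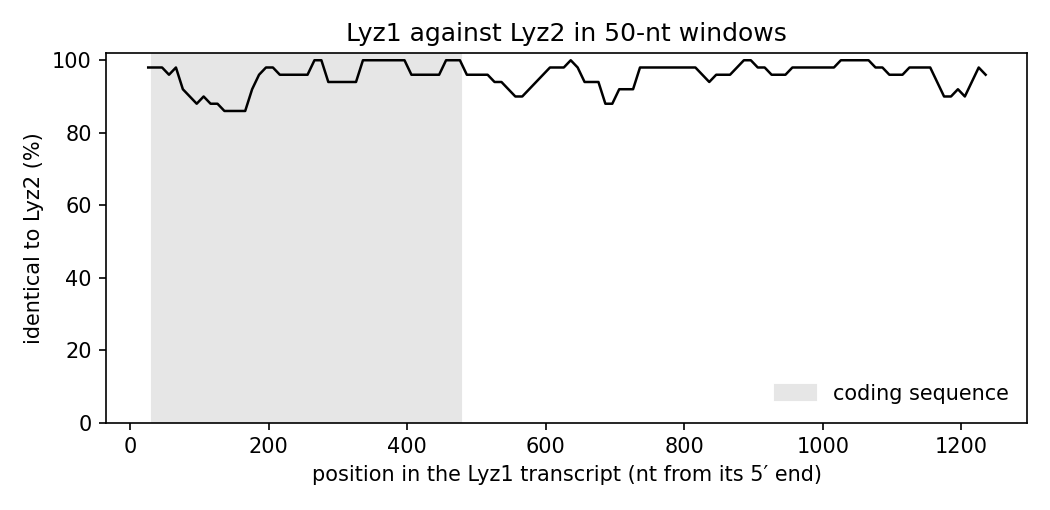
Share of identical bases between the Lyz1 and Lyz2 transcripts (y axis, percent) in windows of 50 nt along the Lyz1 transcript (x axis, nt from its 5′ end), with the coding sequence shaded. Identity ranged from 86% to 100% over 122 windows, with a median of 96%, so likeness was high along the whole transcript.

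The likeness extends upstream. The 130 bases next to the RefSeq start site, at chr10:117292869-117292998 for Lyz1 and chr10:117282273-117282402 for Lyz2 on the minus strand, differed at 10 positions, in capitals, and 92.3% were identical:
Lyz1: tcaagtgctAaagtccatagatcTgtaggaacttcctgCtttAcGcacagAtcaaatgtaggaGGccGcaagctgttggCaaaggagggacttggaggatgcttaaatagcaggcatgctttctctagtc
Lyz2: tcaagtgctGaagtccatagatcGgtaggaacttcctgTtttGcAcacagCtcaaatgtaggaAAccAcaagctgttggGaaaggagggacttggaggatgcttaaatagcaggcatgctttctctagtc
Over the whole windows of 250 bases, aligned with gaps, identity was 79.4%.

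Ang and Rnase4 are shown next because they overlap and RefSeq gives them the same first start site. The 250 bases before their first start site, chr14:51090827-51091076 on the plus strand, are listed by RefSeq for both genes. A second window, chr14:51095750-51095999, is listed for Rnase4 and ends 1 base before a GENCODE transcript of Ang that starts at position 51096000. Capitals mark matches to a TATA box core (TATAAA or TATATA, either strand):
Ang and Rnase4, first start: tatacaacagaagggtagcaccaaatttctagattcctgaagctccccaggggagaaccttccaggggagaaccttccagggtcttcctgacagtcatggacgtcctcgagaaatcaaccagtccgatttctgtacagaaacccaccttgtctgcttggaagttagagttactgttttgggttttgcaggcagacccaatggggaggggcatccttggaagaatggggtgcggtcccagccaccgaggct
Rnase4, second start: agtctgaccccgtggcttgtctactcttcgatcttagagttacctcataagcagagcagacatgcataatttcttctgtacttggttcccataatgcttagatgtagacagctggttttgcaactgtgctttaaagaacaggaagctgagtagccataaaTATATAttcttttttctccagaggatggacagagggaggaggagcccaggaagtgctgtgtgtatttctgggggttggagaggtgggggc
In GENCODE, transcripts of the pair that start near the first site share 104 exonic bases, and those that start near the second share 115, while the coding sequences of Ang (438 bases) and Rnase4 (447 bases) lie in separate exons and share no stretch of 50 bases.

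The windows of Ang4 (chr14:51773591-51773840, minus strand) and Itln1 (chr1:171535295-171535544, minus strand) are given because these genes had the lowest ratios described below. Capitals mark the same TATA box core and a core of TCF/LEF factors, which act in Wnt signalling (CTTTGA or CTTTGT, either strand):
Ang4: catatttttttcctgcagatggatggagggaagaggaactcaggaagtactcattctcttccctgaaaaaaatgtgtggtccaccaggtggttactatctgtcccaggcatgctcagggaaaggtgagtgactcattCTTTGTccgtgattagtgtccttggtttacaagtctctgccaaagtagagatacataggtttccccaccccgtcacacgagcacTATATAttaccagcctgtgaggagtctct
Itln1: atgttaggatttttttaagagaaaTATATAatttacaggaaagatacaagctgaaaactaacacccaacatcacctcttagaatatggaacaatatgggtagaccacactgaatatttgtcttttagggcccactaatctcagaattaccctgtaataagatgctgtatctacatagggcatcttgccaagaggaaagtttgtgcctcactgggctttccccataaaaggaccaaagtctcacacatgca
Ang4 had 1 TCF/LEF core, starting 113 bases before the start site, and 1 TATA core, starting 29 bases before it. Itln1 had no TCF/LEF core in this window and 1 TATA core at 226 bases. The Itln1 window overlaps the gene as listed, which reaches position 171535325, so the start site used for it lies within the gene. Lyz1 had 1 TCF/LEF core, 140 bases before its start site, in the part of its window not printed, and Lyz2 had none. Rnase1, which was higher in the knockout pool, also had 1 TCF/LEF core, starting 250 bases before its start site. Of 32817 distinct promoter windows of this length, 27.6% held the TCF/LEF core and 15.6% the TATA core, so such matches are common. The palindrome that STAT6 can bind, TTC and GAA with 4 bases between them, occurs in 5.85% of the windows and in none of the windows of the 7 genes. A match describes these letters only. The motifs overlapped in none of the printed windows.

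In the levels, Lyz1 was the most abundant of the 7 genes in both pools and Ang the least. By FPKM the order in the knockout pool was Lyz1, Itln1, Ang4, Lyz2, Rnase1, Rnase4 and Ang. In the control pool it was the same except that Rnase4 stood above Rnase1. There is no spread between replicates to set beside this order. By counting error alone, the neighbours Rnase1 and Ang in the control pool had overlapping intervals (10.2 to 15.0 FPKM and 6.69 to 11.0 FPKM), and no other neighbours overlapped in either pool. Together the 7 genes held 0.157% of the expected counts in the knockout pool and 0.225% in the control pool.

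**Figure D2:**
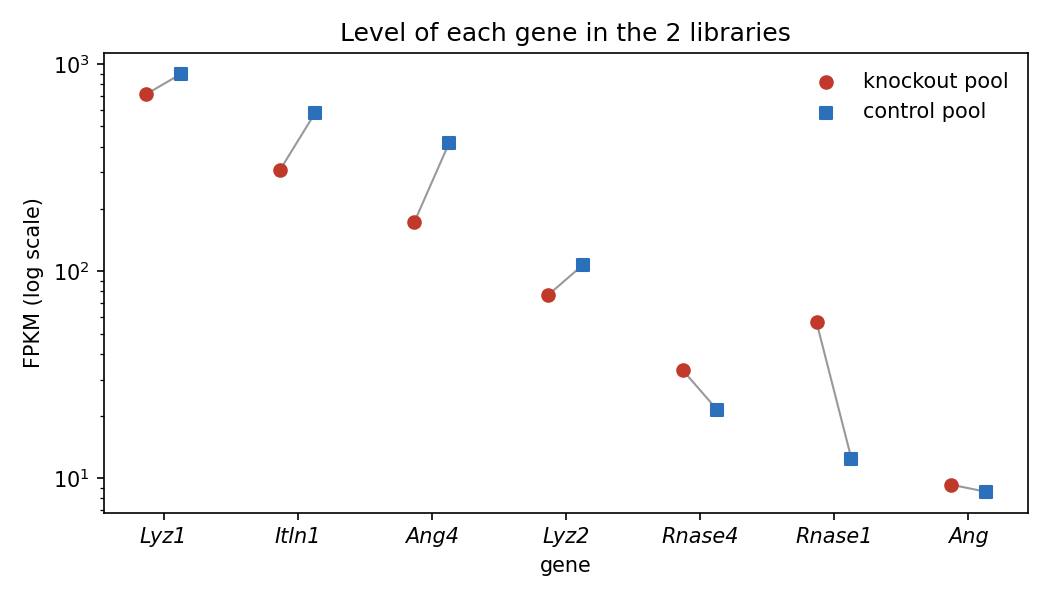
FPKM (y axis, log scale) of the 7 genes in the knockout pool (red circles) and the control pool (blue squares), 1 library each, ordered by the level in the control pool. Lyz1, Itln1, Ang4 and Lyz2 were lower in the knockout pool, and Rnase1 was higher, at 56.6 against 12.4 FPKM.

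Across the 7 genes, 4 were lower in the knockout pool (Ang4, Itln1, Lyz2 and Lyz1) and 3 higher (Rnase1, Rnase4 and Ang). Log2 ratios were taken as knockout over control with 1 FPKM added to each level, and a gene was called at a log2 ratio of 1 or more, or -1 or less, which is 2-fold. By that rule 2 of the 7 were called, Rnase1 higher and Ang4 lower, while 4.07% of all measured genes were called, 2.78% higher and 1.28% lower. CPM are expected counts scaled to the same library total. The 95% counting interval of the CPM ratio lay below 1 for 4 genes, above 1 for 2 and held 1 for Ang. Among all measured genes it lay to one side of 1 for 40.5%, below it for 12.5% and above it for 28.0%. Such an interval reflects counting alone, since neither the spread between mice nor that between pools could be measured, and sequenced copies of 1 molecule are not independent. The median log2 ratio of the 7 genes was -0.32, against 0.08 over all measured genes.

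**Figure D3:**
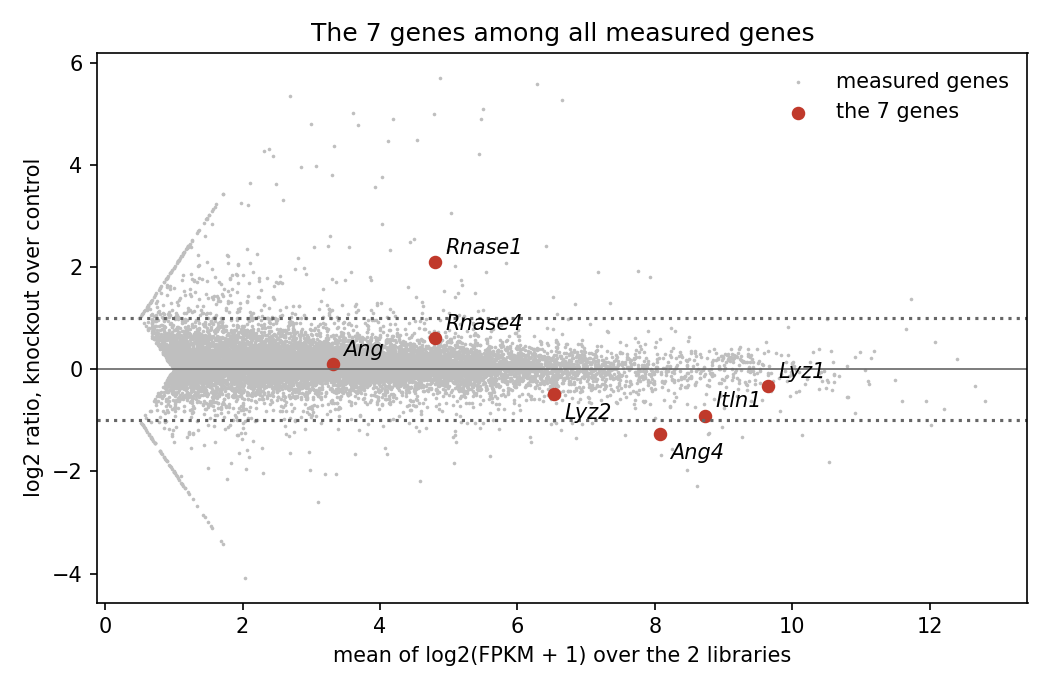
Log2 ratio of knockout over control (y axis) against the mean of log2(FPKM + 1) over the 2 libraries (x axis) for the 13253 measured genes (grey) and the 7 genes (red), with dotted lines at 2-fold. Rnase1 lies above the upper line at 2.10, Ang4 below the lower line at -1.27, and Itln1 at -0.91 is just inside it.

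Ang4, the bactericidal angiogenin, had the lowest ratio of the 7. Its level was 173 FPKM in the knockout pool and 417 FPKM in the control pool, from 1003 and 2468 expected counts. The CPM ratio was 0.414 (0.384 to 0.446), the log2 ratio was -1.27, and 0.785% of measured genes had a lower one. By FPKM it ranked 484 among all genes of the table in the knockout pool and 218 in the control pool. In bulk tissue, fewer cells of a type and less RNA per cell cannot be told apart, here and in the results that follow. Ang5, a related angiogenin with a run of 79 bases in common with Ang4, was given 0 counts in the knockout pool and 1.04 counts in the control pool, which is under the floor of 3 counts. Summed over the pair the ratio was 0.414 as well, and Ang4 shared no stretch of 50 bases with Ang.

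Itln1, the intelectin gene, came next. It was at 310 FPKM in the knockout pool and 582 FPKM in the control pool, from 3036 and 5811 expected counts, and ranked 277 and 138. The CPM ratio was 0.532 (0.509 to 0.556). Its log2 ratio of -0.91 did not reach 2-fold as deposited, but was -1.005 after scaling to the median ratio of all genes, which lowers every knockout value by 0.10 on the log2 scale. A second intelectin row, Itlnb, was listed at 0 in the knockout pool and at 0.04 FPKM in the control pool, which is 0.38 of a count and under the floor.

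Lyz1, the Paneth cell lysozyme, was at 716 FPKM in the knockout pool and 897 FPKM in the control pool, from 7861 and 10037 expected counts. The CPM ratio was 0.798 (0.775 to 0.822) and the log2 ratio -0.32. Lyz2, the myeloid lysozyme, was at 77.0 FPKM in the knockout pool and 107.7 FPKM in the control pool, with a CPM ratio of 0.714 (0.647 to 0.788) and a log2 ratio of -0.48. Both lysozymes were thus lower in the knockout pool by less than 2-fold.

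The lysozyme pair also shows how reads were divided. In the knockout pool Lyz1 had 7860.71 and Lyz2 692.29 expected counts, and in the control pool 10036.6 and 987.4. Neither value is whole, but their sums are, at 8553 in the knockout pool and 11024 in the control pool. The fractional reads were therefore split within the pair, as RSEM does with reads that match several transcripts. The summed CPM ratio was 0.791 (0.768 to 0.813). Lyz2 had 0.0881 counts per count of Lyz1 in the knockout pool and 0.0984 in the control pool, a ratio of 0.895 (0.808 to 0.992) that no scaling of the libraries can move. How many reads of Lyz1 were assigned to Lyz2 is not known from these files, so the level of Lyz2 is less certain than its interval.

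Rnase1, the pancreatic ribonuclease, differed most among the 7. It was at 56.6 FPKM in the knockout pool and 12.4 FPKM in the control pool, from 469 and 105 counts, all of them whole. The CPM ratio was 4.55 (3.68 to 5.68), the log2 ratio 2.10, and 99.3% of measured genes had a lower one. Its rank by FPKM was 1487 in the knockout pool and 5090 in the control pool.

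Rnase4, a ribonuclease of liver and other tissues, was higher by less than 2-fold, at 33.4 FPKM in the knockout pool and 21.4 FPKM in the control pool. Its CPM ratio was 1.55 (1.34 to 1.80), from 463.4 and 304.1 counts. Ang, the founding angiogenin, was at 9.33 FPKM in the knockout pool and 8.62 FPKM in the control pool, from 71.6 and 66.9 counts. With a CPM ratio of 1.09 (0.774 to 1.55), which held 1, a difference was not detectable for Ang at this depth.

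For this overlapping pair too the counts were fractional singly and whole together, at 535 in the knockout pool and 371 in the control pool. The summed CPM ratio was 1.47 (1.28 to 1.68). Per count of Ang, Rnase4 had 6.47 counts in the knockout pool and 4.55 in the control pool. The interval of that change, 1.42 (0.969 to 2.07), held 1, so at this depth the ratios of the genes could not be told from each other.

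**Figure D4:**
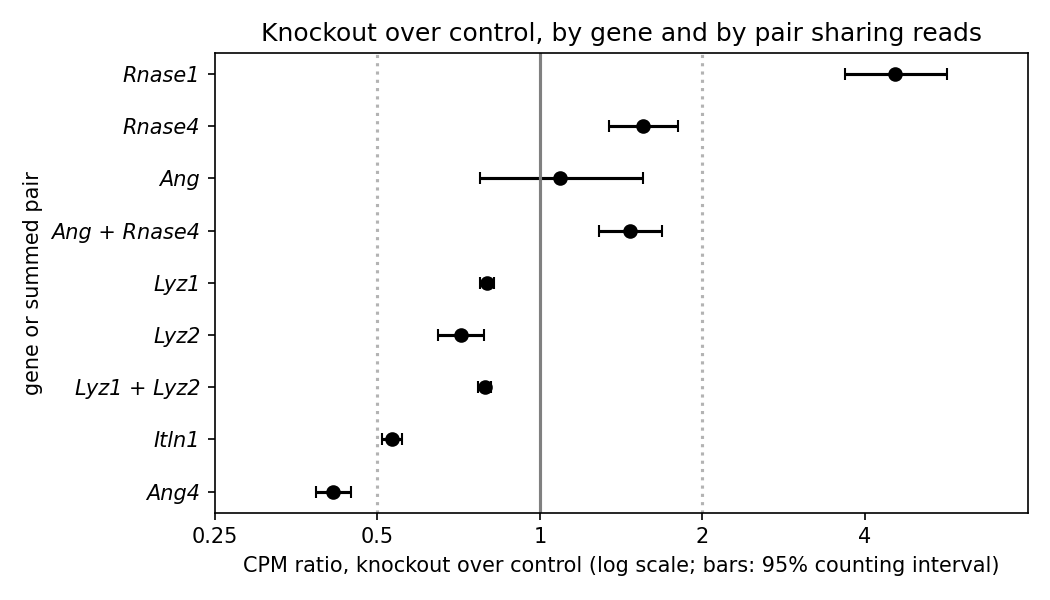
CPM ratio of knockout over control (x axis, log scale; points) with 95% counting intervals (bars) for each gene and for the summed pairs that share reads, with dotted lines at 2-fold. Ang4 lies below 0.5 with its whole interval, Rnase1 lies above 2, and the interval of Ang alone crosses 1.

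Ratios between genes within a library do not depend on the scaling, and they show that Lyz1, Ang4 and Itln1 did not keep their proportions. Ang4 had 0.128 counts per count of Lyz1 in the knockout pool and 0.246 in the control pool, a change of 0.519 (0.479 to 0.562). Itln1 had 0.386 counts per count of Lyz1 in the knockout pool and 0.579 in the control pool, a change of 0.667 (0.633 to 0.703). Ang4 against Itln1 changed by 0.778 (0.713 to 0.848). As a result Lyz1 made up 57.8% of the counts of the 7 genes in the knockout pool and 50.7% in the control pool, and Ang4 7.38% and 12.5%.

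Paneth cell genes formed the first list set beside these values. For this and the later lists, the shares over all measured genes were 2.78% at least 2-fold higher and 1.28% lower. The median log2 ratio over all measured genes was 0.08. Of 25 measured Paneth cell markers, 2 were at least 2-fold higher and 9 at least 2-fold lower, with a median log2 ratio of -0.02. The higher ones were Pla2g2a, a phospholipase gene (53.5 FPKM in the knockout pool, 8.27 in the control pool), and Habp2 (5.29 and 2.14 FPKM), a plasma serine protease. These RNA levels do not show whether active enzyme is made. The lowest were the alpha-defensin-like genes Gm15284 (176 and 866 FPKM) and Gm14851 (179 and 701 FPKM), and the most abundant was the alpha-defensin Defa24 (2860 and 6057 FPKM). Gm15284, Gm14851 and Defa24 had fractional expected counts, such as 548.91 and 2753.1 for Gm15284, so reads were divided among genes. Their single values are thus less certain than the counts alone imply. The summed level of the list was 7484 FPKM in the knockout pool and 16549 FPKM in the control pool. None of its genes was at 0, and the count ratio was 0.482 (0.475 to 0.489).

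Against that sum, the 3 genes of Paneth cells differed among themselves. Lyz1 had 0.275 counts per count of the list in the knockout pool and 0.166 in the control pool, a change of 1.66 (1.60 to 1.71). Itln1 changed by 1.10 (1.06 to 1.16) and Ang4 by 0.860 (0.798 to 0.926). Lyz1 was thus less reduced than the summed list, whose counts come mostly from defensins, and Ang4 more so. This holds for the sum only. The median log2 ratio of the markers was -0.02, with 11 of 25 above 0, and that of Lyz1 was lower, at -0.32. The part of Paneth cell number in these values was not tested.

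Regulators of secretory cells and their granules were mostly close between the pools. Of 23 measured, 1 was at least 2-fold higher, 0 lower, and the median log2 ratio was 0.13. The highest were Ephb3, a receptor that positions Paneth cells at the crypt base (9.94 FPKM in the knockout pool, 2.09 in the control pool), and Sox9, a transcription factor that Paneth cells need (4.72 and 2.41 FPKM). Ripk2, the kinase downstream of the microbial sensor Nod2, had 1.26 and 1.77 FPKM, and the Wnt receptor Fzd5 had 16.2 and 18.0 FPKM. Agr2, a disulfide isomerase of mucus-secreting cells, was the most abundant, at 221 and 209 FPKM.

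Goblet cells also make Itln1 and Ang4. Among their markers 16 were measured, and the 2-fold rule was passed upward by 1 and downward by 1. The median log2 ratio was -0.13 and the mean, of opposite sign, 0.02. Retnlb, a bactericidal protein, was at 70.2 FPKM in the knockout pool and 13.1 in the control pool, and the chemokine Ccl9 at 8.19 and 4.61 FPKM. Clca1, a protease of mucus, was at 281 and 676 FPKM, Muc2, the gel-forming mucin, at 48.4 and 76.8 FPKM, and Zg16, a lectin of the mucus layer and the most abundant, at 1477 and 2152 FPKM. The summed level was 4386 FPKM in the knockout pool and 5882 FPKM in the control pool, no marker was at 0, and the count ratio was 0.645 (0.638 to 0.653). Per count of this list Ang4 changed by 0.642 (0.596 to 0.691) and Itln1 by 0.825 (0.788 to 0.863). The part of goblet cells in the values of Ang4 and Itln1 was not tested.

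Ang4, Itln1 and Retnlb are among the genes that the epithelium raises in response to type 2 cytokines in mice. On a list of such genes without Ang4 and Itln1, 3 of 14 measured were at least 2-fold higher and 1 lower, with a median log2 ratio of 0.19. Chil4, a chitinase-like protein, was at 6.90 FPKM in the knockout pool and 0.09 FPKM in the control pool, and Retnlb had 70.2 and 13.1 FPKM. The control value of Chil4 rests on 1.25 counts, under the floor of 3 counts, so the size of its ratio is uncertain. Clca1 (281 and 676 FPKM) and the tuft cell channel Trpm5 (3.73 and 5.30 FPKM) had the lowest ratios. Sprr2a3, a small proline-rich protein, was the most abundant, at 2047 and 1027 FPKM. Its expected counts were fractional (14716.25 and 7526.09), so its level depends on how reads were divided. The CPM ratio was 1.99 for Sprr2a3, 1.12 for Sprr2a1 and 3.82 for Sprr2a2. Ang4 and Itln1, which were lower, and Retnlb, which was higher, thus differed in direction.

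Other secreted antimicrobial genes of the epithelium were set beside the 7. Of 20 measured, 3 were at least 2-fold higher and 0 lower, with a median log2 ratio of 0.26. The most abundant was Reg3b, a C-type lectin that binds bacteria, at 5469 FPKM in the knockout pool and 2088 FPKM in the control pool. Retnlb (70.2 and 13.1 FPKM) and Saa3, an acute phase protein (5.50 and 0.90 FPKM), had the highest ratios. Nos2, which makes nitric oxide (0.51 and 1.47 FPKM), and Duox2, which makes hydrogen peroxide (12.8 and 19.8 FPKM), had the lowest. The CPM ratio of Saa3 had a wide interval (2.10 to 24.2), from 24 counts in the knockout pool and 4 in the control pool. Retnlb is also on the goblet and type 2 lists, and Zg16 on the goblet list, so the lists are not separate sets.

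**Figure D5:**
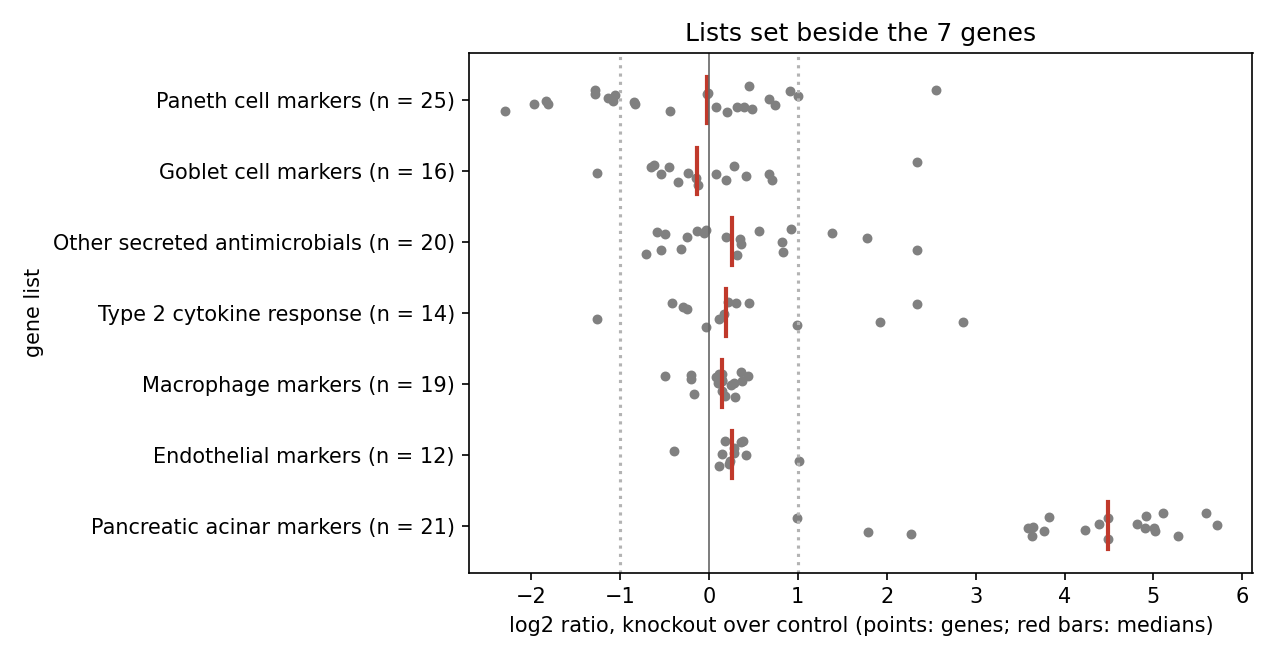
Log2 ratio of knockout over control (x axis) for the measured genes of 7 lists (grey points; y axis, lists; red bars, medians), with dotted lines at 2-fold. Paneth cell markers spread to both sides with a median of -0.02, macrophage markers lie near 0, and pancreatic acinar markers have a median of 4.49. Some genes, such as Retnlb, are on several lists.

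Lyz2 is used as a marker of macrophages, so their other markers were set beside it. Of 19 measured, 0 were past 2-fold, 15 were above 0 and the median log2 ratio was 0.15. Of all measured genes only 4.07% were past 2-fold, and their median was 0.08, also above 0. Cd68, a lysosomal glycoprotein, was at 6.29 FPKM in the knockout pool and 4.37 in the control pool, and Fcer1g, an Fc receptor chain, at 23.7 and 18.1 FPKM. The Fc receptor Fcgr1 (0.71 and 1.40 FPKM) and Cybb, the phagocyte oxidase (3.49 and 4.18 FPKM), had the lowest ratios, and the protease Ctss was the most abundant, at 135 and 121 FPKM. Their summed level was 426 FPKM in the knockout pool and 376 FPKM in the control pool, none was at 0, and the count ratio was 1.11 (1.07 to 1.16). Lyz2 had 0.124 counts per count of this list in the knockout pool and 0.193 in the control pool, a change of 0.642 (0.577 to 0.713), so Lyz2 was lower where the sum of the macrophage markers was higher. Of the 19 markers 4 were below 0, as Lyz2 was, and their median was 0.05 when scaled by the median ratio. The neutrophil list had 1 of 7 measured genes at least 2-fold higher and 0 lower (median 0.39, and 0.20 without the filter on low values). The eosinophil list had 0 of 3 past 2-fold, and its median of -0.35 had the opposite sign without the filter, 0.15.

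Rnase1 is a product of pancreatic acinar cells, and their markers moved with it. Of 21 measured, 20 were at least 2-fold higher and 0 lower, with a median log2 ratio of 4.49. Try5, a trypsin, was at 212 FPKM in the knockout pool and 3.06 in the control pool, and Ctrb1, a chymotrypsin, at 538 and 10.2 FPKM. The lowest ratios were those of colipase, Clps (149 and 74.8 FPKM), and the amylase Amy2b (3.79 and 0.39 FPKM), and the most abundant was the amylase Amy2a5 (626 and 15.1 FPKM). Their summed level was 3008 FPKM in the knockout pool and 151 FPKM in the control pool, with 0 and 3 of 24 genes at 0 and a count ratio of 25.9 (24.4 to 27.5). Rnase1 had 0.0167 counts per count of this list in the knockout pool and 0.0952 in the control pool, a change of 0.176 (0.141 to 0.221). The part of pancreatic RNA in the value of Rnase1 was not tested.

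In humans Rnase1 is also made by vascular endothelium, and endothelial markers were therefore listed. Of 12 measured, 1 was at least 2-fold higher and 0 lower, with a median log2 ratio of 0.26 and a summed level of 98.9 FPKM in the knockout pool and 80.2 FPKM in the control pool. Cdh5, the endothelial cadherin, was at 6.87 and 2.89 FPKM, von Willebrand factor (Vwf) at 2.93 and 1.94 FPKM, Cldn5, a claudin, at 1.23 and 1.93 FPKM, the receptor Tie1 at 3.25 and 2.92 FPKM, and Plvap, the most abundant, at 39.1 and 34.5 FPKM. None was at 0. Liver markers, listed because Rnase4 and Ang are made there, had 1 of 3 measured genes at least 2-fold higher (median 0.72, and 0.06 without the filter on low values). In the list for mesothelium and omental fat, where humans make intelectin, 1 of 3 was at least 2-fold lower (median -0.24, and -0.06 without the filter). This gene, Upk3b, had 2 counts in the knockout pool, under the floor of 3 counts, and 23 in the control pool. The size of its ratio is thus uncertain.

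Few close relatives of the 7 genes could be assessed, and the levels of the unmatched ones, Ang2 and Ang6 among them, are not known here. Of 8 other lysozyme family genes looked for, 2 could be matched to the table and 0 reached 1 FPKM. Lyzl4 was at 0.67 FPKM in the knockout pool and 0.33 in the control pool, from 6 and 3 counts. Of 16 other ribonuclease A family genes, 6 could be matched and 1 was measured. This was Rnase6, an antimicrobial ribonuclease of myeloid cells, at 2.96 FPKM in the knockout pool and 3.87 in the control pool, and its CPM ratio of 0.764 (0.446 to 1.29) had an interval that held 1.

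Enzymes that cut RNA or DNA outside this family, with the ribonuclease inhibitor, made up a last list of 6 measured genes. Among them 1 was at least 2-fold lower and 0 higher, and the median log2 ratio was 0.25. Dnase1, a secreted enzyme that cuts DNA, was at 76.2 FPKM in the knockout pool and 159 FPKM in the control pool, with a CPM ratio of 0.478 (0.440 to 0.518). Rnh1, the cytosolic inhibitor that binds secreted ribonucleases tightly, was at 100.5 and 82.6 FPKM. The lysosomal ribonucleases Rnaset2b (34.8 and 17.0 FPKM) and Rnaset2a (129 and 110 FPKM) share reads, and their summed counts, whole in both pools, had a ratio of 1.29 (1.19 to 1.40). Dnase2a, the lysosomal enzyme for DNA, was at 5.78 and 5.34 FPKM.

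Genes outside the 7 were taken from around each locus. For each of the 7 genes these were the 2 nearest measured genes on either side, with the 7 themselves left out although several lie closer. They lay 12815 to 799141 bases away, so many are not close. This gave 13 genes, 0 of them past 2-fold, with log2 ratios from -0.30 to 0.41. Of all measured genes only 4.07% were past 2-fold, so 0 of 13 does not set these genes apart. Rnase6, which ends 12815 bases before Rnase1, had a log2 ratio of -0.30 where Rnase1 had 2.10. Around Itln1, Alyref2 was at 5.07 FPKM in the knockout pool and 3.72 in the control pool, and Cd244a at 3.63 and 2.48 FPKM. These neighbours were chosen after the values had been seen.

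The genes most like Lyz1, Ang4 and Itln1 were found by the distance between log2(FPKM + 1) values over the 2 libraries, which are few points. For Lyz1 they were Vil1, a protein of the microvillus core (719 FPKM in the knockout pool, 879 in the control pool), Papss2, which makes the sulfate donor of mucins and other molecules (720 and 877 FPKM), and Adh6a, an alcohol dehydrogenase (711 and 959 FPKM). For Itln1 they were the brush border enzyme Sis (332 and 533 FPKM), the galectin Lgals3 (296 and 491 FPKM) and Gm21498 (286 and 680 FPKM). For Ang4 they were the brush border peptidase Ace (183 and 355 FPKM), LOC547349 (152 and 488 FPKM) and H2-Bl (177 and 522 FPKM). The list of absorptive enterocyte markers, to which Vil1, Sis and Ace belong, had 0 of 20 past 2-fold, 18 below 0 and a median log2 ratio of -0.53, with a summed level of 30565 FPKM in the knockout pool and 42816 FPKM in the control pool.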

How the data were processed

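Per the labels' protocols and the submitters' processing notes, reads were mapped to mm10 with BWA and Bowtie2 and quantified per gene with RSEM; versions are not given in the sources used here. The deposited sample files hold expected counts and FPKM, made by the authors, and a deposited table of both libraries repeats these FPKM and gives 0 to genes that a library does not list. RSEM divides reads that match several genes, and 78.2% of listed genes in the knockout pool and 78.1% in the control pool had whole expected counts (tolerance 0.005). No strand setting is given.

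Log2 ratios used FPKM plus 1. CPM are expected counts scaled to the same library total. Counting intervals (95%) are exact Clopper-Pearson intervals of the knockout share of rounded counts. Intervals of changes in ratios between genes are conditional exact, or from the log odds ratio for the Paneth and goblet lists. The floor is 3 counts per library (0.347 CPM in the knockout pool, 0.341 in the control pool). With 1 library per group no test was run. The rule and intervals were run on simulated counts that varied by counting alone. These held no spread between mice or pools and no split reads, so they cannot check the rule or intervals against either. Sequences came from RefSeq (GRCm38.p6) and GENCODE M21 (GRCm38). Python 3.11.15, numpy 2.4.6, pandas 2.3.3 and scipy 1.17.1 were used.

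The 7 genes and the lists were chosen with earlier results of these data known. The text names the 7 genes, measured relatives, Setd2, for each list given in detail the most abundant gene and the extremes of the log2 ratio (at most 2 at either end), and the 3 genes nearest in level to Lyz1, Ang4 and Itln1. Any other gene was chosen after its values were seen. Alternatives were other pseudocounts, filters and scalings, and sums over genes that share reads.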

Additional observations from a re-analysis of the deposited data

How the results depend on the processing

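No paired analysis was possible because each group had 1 library, and for the same reason no library could be left out. A pseudocount cannot turn the sign of a log2 ratio, and the rescalings of FPKM shifted log2 levels by only -0.098 to 0.015. Signs could thus hardly change, and their keeping is no check of the differences. Over 7 alternatives each, the 7 genes kept the sign of their log2 ratio in 49 of 49 values and their side of the 2-fold rule in 48. The exception was Itln1, at -1.005 when scaled by the median ratio, which made 2 of the 7 genes at least 2-fold lower. The same scaling moved Lyz1 to -0.42 and the macrophage median to 0.0535. It lowers all log2 ratios by about 0.10, which put the Paneth cell median at -0.11 and the goblet cell median at -0.22 and turned the sign of no list median. The CPM ratio of Lyz1 and Lyz2 summed was 0.791. Most of the summed counts are those of Lyz1, so this value says little about Lyz2 alone. The numbers of genes at least 2-fold higher and lower were 369 and 170 as reported, 699 and 282 with a pseudocount of 0.1 FPKM, 106 and 50 with 5 FPKM, 191 and 84 at an FPKM of 5 or more, and 216 and 80 with at least 50 expected counts. List medians changed with the setting, and examples follow. That of eosinophils was -0.43 with a pseudocount of 0.1 FPKM, -0.42 scaled by the median ratio, and 0.15, of opposite sign, without a filter. Without a filter the median was -0.0562 for mesothelium and fat, 0.199 for neutrophils and 0.0641 for liver. That of pancreatic acinar cells was 5.11 with a pseudocount of 0.1 FPKM. The fewer or more low genes counted follow from the filters and pseudocounts themselves; for the other shifts the cause was not tested. Depth limits Ang most, with 71.6 and 66.9 counts in the knockout and control pools.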
